A study of Mus musculus with 8 samples.

Results

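The genes of DNA replication and S phase were followed in mouse embryonic fibroblasts (MEFs) that lacked Lats2, a kinase gene of the Hippo pathway, and in wild type MEFs. The members were 45 genes chosen by name for their role in copying DNA or in entry into S phase, and every gene probe on the array that carries such a name was taken. By name, 44 of the 45 genes had a probe, out of 27745 gene names on the array and 14791 with a probe that gave signal. The exception was Gins2, which is no gene name on this array.

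The samples were MEFs of strain C57BL/6J, untreated and grown in DMEM with fetal bovine serum. The genotypes were Lats2-/- and Lats2+/+, each with 1 RNA extract from each of 3 litters (112, 116 and 121), so that 6 extracts were measured, and each extract carries 1 clone name in the labels. The labels name no Cre or transgene, and the age of the embryos and the passage of the cultures are not given in the sources used here. Both extracts of a litter were hybridised to the same 2-colour arrays, Cy3 on one and Cy5 on the other, with dyes swapped: 2 arrays each for litters 112 and 116, and 4 for litter 121. Ratios are Lats2-/- over Lats2+/+ on the log2 scale, so that a negative value means less transcript in the KO cells, and the litter is the replicate (n = 3).

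Before a cell copies its DNA, the origin recognition complex, CDC6 and CDT1 load the MCM helicase ring onto chromatin in G1. In S phase, CDC45 and the GINS proteins turn the ring into an active helicase, the polymerases and primase copy the strands behind it, and the sliding clamp, its loader, a flap nuclease and a ligase complete the lagging strand. Many of these genes are transcribed under E2F factors as cells leave G1, so that their transcripts are abundant in dividing cultures and scarce in resting ones. MEFs divide for a limited number of passages in culture and then slow down.

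The 8 arrays lay on 2 slides. Slide 1 held litters 112 and 116 while slide 2 held litter 121 alone, so that litter 121 and its slide cannot be told apart. Between 53.1% and 61.6% of the gene probes were well above background in a channel. Of the 4 probes of Lats2, the target gene, A_52_P425064 was lower in Lats2-/- cells in every litter (log2 ratios of -1.33, -1.05 and -0.56), whereas the other 3 were below 0 on slide 1 and lay between 0.80 and 1.17 on slide 2. All 12 fibroblast markers examined had a probe that gave signal, and 10 of them were well above background in all 6 extracts. Ptprc, Emr1 and Itgam of 7 macrophage markers, Pecam1, Cdh5 and Tie1 of 5 endothelial markers and all 3 muscle markers were well above background in no extract. By contrast, the macrophage markers Lyz2 and Cd14 were well above background in all 6 extracts, Cd68 in 4 and Csf1r in 2, and the endothelial marker Tek in 5. The Lats2-/- extract of litter 121 stood apart from the other 5 in some markers. Pdgfra, a fibroblast marker, was not well above background there alone, the levels of Thy1 and S100a4 were the lowest of the 6 extracts (log2 ratios of -3.66 and -3.61 to the wild type littermate), and that of Nes, a neural marker, was the highest (log2 signal of 12.52, against 7.498 to 8.42). Other markers did not follow: the fibroblast markers Fn1 and Postn were highest in that same extract, with ratios of 0.07 and 0.67 to the littermate. Of the neural markers, Sox2 was well above background in no extract and Tubb3 was not highest there. The Lats2-/- extract of litter 116 also stood apart, with Lum at 11.93 against 6.24 to 7.04 in the other 5 and Dcn highest at 15.83. Values of the group are also given with each litter left out.

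The members were measured by 61 probes, of which 55 were kept as clear of background in 2 or more of a genotype's 3 extracts. All 55 were well above background in all 16 channels, so that no member entered the comparison through 1 genotype alone. The 6 probes left out were further probes of Rrm1, Tyms, Pola2, Pole and Mcm4, each of which also had a kept probe. Closest to the limit among them were a Tyms probe, well above background on 2 arrays in the KO channel and 4 in the wild type channel, and a Pola2 probe with 1 and 3. Where a gene had more than 1 kept probe, the brightest was used.

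In litters 112 and 116, nearly the whole group was lower in Lats2-/- cells. The ratio was below 0 for 41 of 44 members in litter 112, where 47.7% of all genes were below 0, and for 42 of 44 in litter 116, where the share over all genes was 49.3%. In litter 121 it was below 0 for 14 of 44 members, against 49.1% of all genes. The median member ratio was -0.59 in litter 112 (1.5-fold lower), -0.65 in litter 116 (1.57-fold lower) and 0.11 in litter 121. Over all genes the median was within 0.02 of 0 in each litter. The 2 litters of slide 1 therefore gave lower group medians of similar size, and the litter of slide 2 did not.

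**Figure D1:**
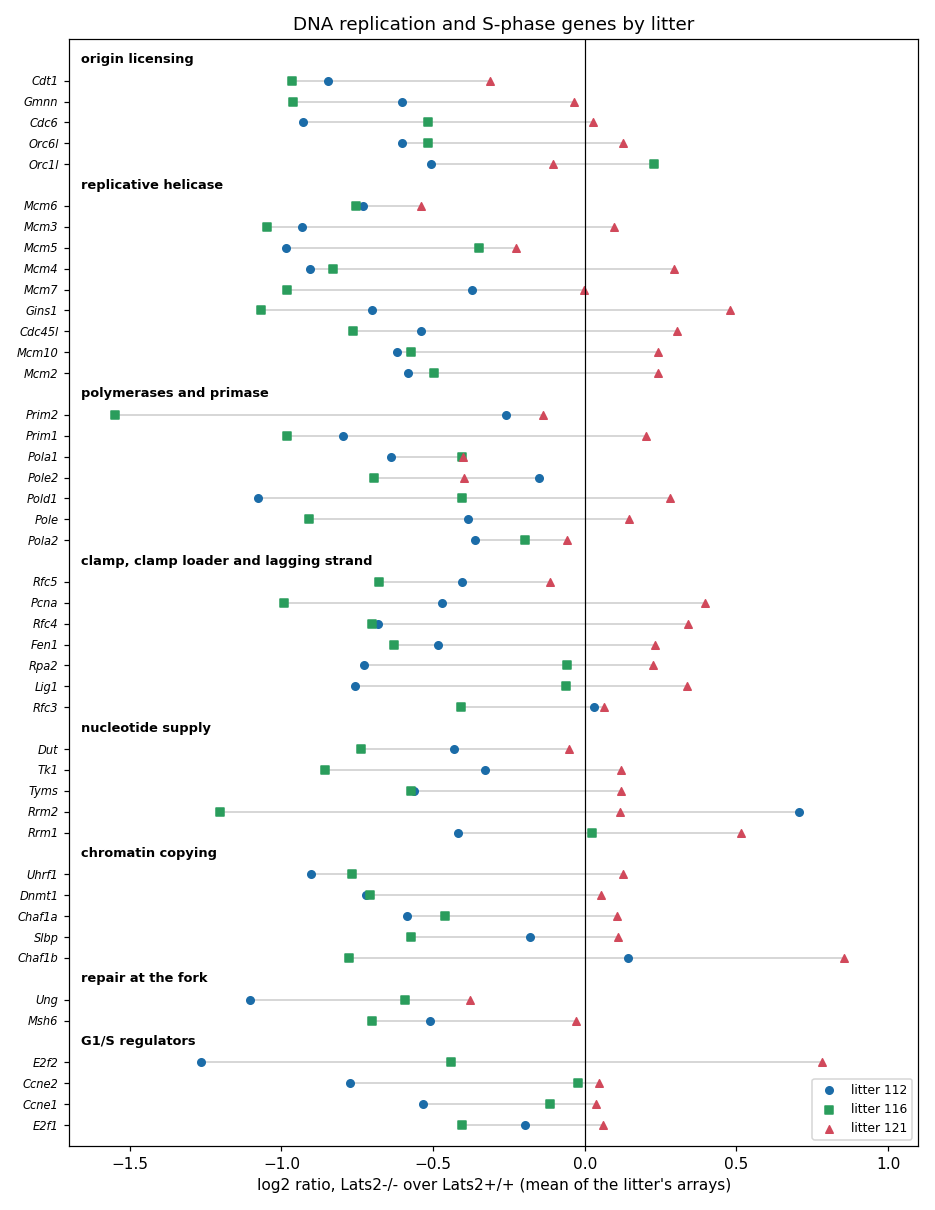
Log2 ratio of Lats2-/- over Lats2+/+ (x axis) for the 44 members, grouped by role and ordered by their mean within a role. Each point is the mean of the arrays of 1 litter and the grey line spans the 3 litters. Litters 112 and 116 lie mostly left of 0, and 30 of the 44 points of litter 121 lie right of it.

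Single members varied around these medians. The lowest and highest members were E2f2 (-1.27) and Rrm2 (0.71) in litter 112, Prim2 (-1.55) and Orc1l (0.23) in litter 116, and Mcm6 (-0.54) and Chaf1b (0.85) in litter 121. A decrease of at least 2-fold was reached by 3 members in litter 112, by 4 in litter 116 and by 0 in litter 121, against 1.46%, 3.68% and 3.23% of all genes. Across the 44 members, which are not independent of each other, Pearson's r between litters was -0.21 for 112 and 116, 0.03 for 112 and 121 and 0.04 for 116 and 121. Over all genes it was 0.135, 0.0561 and -0.00278 for the same pairs.

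Averaged over litters, the median member ratio was -0.36 (1.28-fold lower), and 42 of 44 means were below 0. At an adjusted p under 0.05 in limma, 0 of 44 members were called, as were 0% of all genes. At an unadjusted p under 0.05, 4 members were lower (Cdt1, Mcm6, Pola1 and Ung), where 3.45% of all genes were lower at that threshold, and 0 members were higher, where 4.14% of all genes were. Leaving out litter 112 or litter 116 gave medians of the member means of -0.26 and -0.24. In an exact test over litters, 3 values that share a sign cannot give a two-sided p below 0.25. Of the 4, Mcm6 and Pola1 were also at an unadjusted p under 0.05 by the methods' t-test, which borrows no spread from other probes, and Cdt1 and Ung were not. Without litter 121, which is also the comparison within slide 1, the median of the member means was -0.59 and 24 of 44 members were lower at an unadjusted p under 0.05, against 3.54% of all genes. None of them passed the adjusted threshold in that fit of 2 litters.

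By sign, 13 members were below 0 in all 3 litters, as were 14.1% of all genes, and 26 members were below 0 in litters 112 and 116 and above 0 in litter 121, as were 11.7% of all genes. The remaining 5 were Orc1l, Rrm1, Rrm2, Chaf1b and Rfc3. The 13 were Cdt1, Gmnn, Mcm5, Mcm6, Mcm7, Pola1, Pola2, Prim2, Pole2, Rfc5, Dut, Ung and Msh6, and 9 of them were below 0 on all 8 arrays. For the other 4 (Gmnn, Mcm7, Pola2 and Rfc5), the sign varied between the 4 arrays of litter 121.

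The arrays of a litter gave nearly the same group value in both dye orientations. The median member ratio was -0.60 and -0.56 on the 2 arrays of litter 112, and -0.67 on both arrays of litter 116. On the 4 arrays of litter 121 it was 0.11, 0.07, 0.10 and 0.09. The gap between litter 121 and the others was therefore far larger than the spread between arrays of the same extracts, which is a technical spread.

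**Figure D2:**
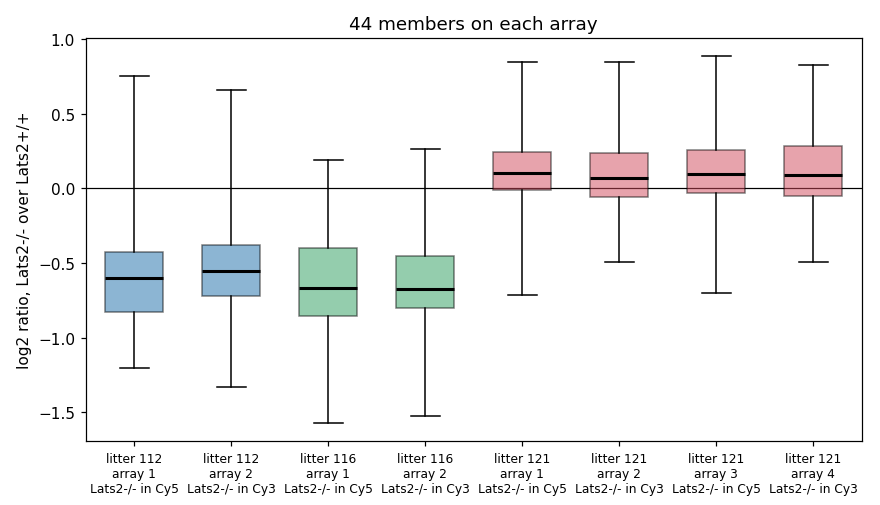
Log2 ratios of the 44 members on each of the 8 arrays, with the litter and the dye of the Lats2-/- extract given below. Boxes span the middle quartiles, the black line is the median, and whiskers reach the lowest and highest member. The medians of the 4 arrays of litters 112 and 116 lie between -0.67 and -0.56, and those of litter 121 between 0.07 and 0.11.

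The levels in the single extracts show which of them set these ratios. Each member's log2 signal was set against its own mean over the 6 extracts. The median deviation was 0.68 in wild type litter 112, 0.43 in wild type litter 116 and -0.55 in wild type litter 121. In the Lats2-/- extracts it was 0.09, -0.20 and -0.43 for litters 112, 116 and 121. The wild type cells of litters 112 and 116 thus held the highest member levels, and both extracts of litter 121 the lowest. Over all genes the median deviation lay between -0.03 and 0.02 in every extract.

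**Figure D3:**
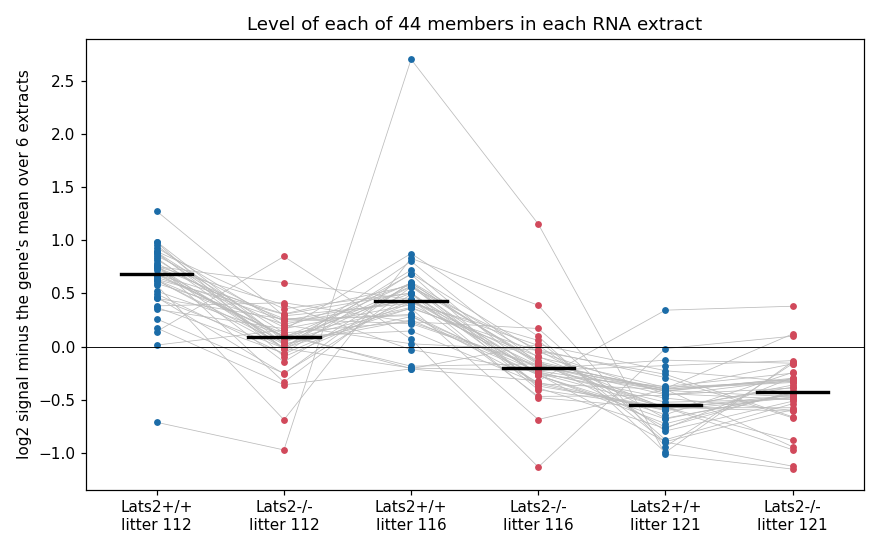
Log2 signal of each of the 44 members minus that gene's mean over the 6 extracts (y axis), by extract (x axis), with wild type in blue and Lats2-/- in red. Grey lines join the values of a gene and black bars are medians, which run from 0.68 in wild type litter 112 down to -0.55 in wild type litter 121. The point at the top is Prim2 in wild type litter 116.

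Wild type litter 112 was the highest of the 6 extracts for 33 of 44 members, against 18.1% of all genes, and wild type litter 121 was the lowest for 25, against 15% of all genes. Among the 3 wild type extracts, that of litter 121 was the lowest for 42 of 44 members, against 37.6% of all genes. Compared with the mean of wild type litters 112 and 116, wild type litter 121 was lower for 43 members and for 53.8% of all genes, with median differences of -1.11 and -0.04 on the log2 scale. The same difference between the Lats2-/- extracts had a median of -0.38 over the members and -0.05 over all genes, with 39 members and 54.9% of all genes lower in litter 121. The range over the 3 wild type extracts was wider than that over the 3 Lats2-/- extracts for 41 of 44 members, against 48% of all genes, with median ranges of 1.26 and 0.63 log2 units. For all genes these medians were 0.50 and 0.52. Since RNA was taken from whole cultures, fewer cells in S phase and less of these transcripts per cell cannot be told apart.

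Among the genes of origin licensing, Cdt1, which brings the MCM ring to origins, was lower in each litter. The log2 signal of its probe (A_51_P133612, mm8 chr8:125459083-125459142) was 12.76, 12.73 and 11.35 in wild type litters 112, 116 and 121 and 11.91, 11.76 and 11.04 in the Lats2-/- extracts. Every KO extract was below its littermate, although wild type litter 121 was below all Lats2-/- extracts but its own. The ratios of -0.85, -0.96 and -0.31 gave a mean of -0.71 ± 0.35 (SD, n = 3 litters), a 1.63-fold lower level, and limma gave a p of 0.0164 (adjusted p = 0.711). Gmnn, which encodes geminin, the inhibitor of CDT1, had ratios of -0.60, -0.96 and -0.04 (mean -0.53 ± 0.47, SD, n = 3 litters). An activator and its inhibitor thus lay on the same side of 0.

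Cdc6, the loader ATPase that acts with CDT1, had ratios of -0.93, -0.52 and 0.03. Its second probe gave -0.26, -1.22 and 0.34, so that the litters differ in order between probes by up to 0.70, the largest disagreement among the 11 members with 2 kept probes. Orc1l, the largest subunit of the origin recognition complex, had ratios of -0.51, 0.23 and -0.10 and was the only member of this role above 0 in litter 116. Orc6l had -0.60, -0.52 and 0.13.

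The replicative helicase was the role with the lowest median in litter 112 save for the pair of repair genes, and the lowest of all roles in litter 116. Its 9 measured members were all below 0 in both of these litters, with medians of -0.70 and -0.76, and 6 of the 9 were above 0 in litter 121 (median 0.24). Mcm6, a subunit of the MCM ring, had the smallest p of all members. The log2 signal of its probe (A_51_P360492, mm8 chr1:130159147-130159206) was 13.86, 13.64 and 12.64 in wild type litters 112, 116 and 121, and 13.13, 12.89 and 12.10 in their Lats2-/- littermates. The difference was of similar size in all 3 litters, at ratios of -0.73, -0.76 and -0.54. The mean of -0.68 ± 0.12 (SD, n = 3 litters) is a 1.60-fold lower level, and limma gave a p of 0.00364 (adjusted p = 0.711).

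The other ring subunits were less even. Mcm5 was lower in each litter, at -0.98, -0.35 and -0.23 (mean -0.52 ± 0.41, SD, n = 3 litters). Mcm7 had -0.37, -0.98 and -0.0013, and Mcm2 had -0.58, -0.50 and 0.24. Mcm3 and Mcm4 had low ratios on slide 1, with -0.93 and -1.05 for Mcm3 and -0.91 and -0.83 for Mcm4, and both were above 0 in litter 121 (0.10 and 0.29). Subunits of a single hexamer thus differed in litter 121 from -0.54 for Mcm6 to 0.29 for Mcm4. Cdc45l and Gins1, which join the ring when it is activated, had ratios of 0.30 and 0.48 in litter 121, against -0.54 and -0.70 in litter 112 and -0.76 and -1.07 in litter 116. Mcm10, an activation factor, followed the same order of signs (-0.62, -0.57 and 0.24). A probe on this array carries the transcript that RefSeq assigns to Gins2 under the name 4833427B12Rik. It lies outside the naming rule and its ratios were -0.06, 0.06 and 0.21.

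The bases before the RefSeq start sites of Mcm6 and Mcm5 are shown because these helicase genes were below 0 on all 8 arrays, with that of Pola1, the polymerase with the smallest p, and that of Orc1l, which did not follow the group. Each sequence is the 250 bases upstream of the start in GRCm38.p6, 5′ to 3′ along the gene's strand, and capitals mark the E2F words TTTCGCGC, TTTGGCGC, TTTCCCGC and TTTGCCGC and the word CCAAT on either strand. Overlapping words run together.
Mcm6 (chr1:128359706-128359955, minus strand): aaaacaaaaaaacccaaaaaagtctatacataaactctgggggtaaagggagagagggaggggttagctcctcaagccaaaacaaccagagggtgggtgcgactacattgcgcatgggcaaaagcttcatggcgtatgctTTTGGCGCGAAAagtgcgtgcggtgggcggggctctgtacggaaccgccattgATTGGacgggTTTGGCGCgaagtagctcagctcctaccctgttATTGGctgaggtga
Mcm5 (chr8:75109259-75109508, plus strand): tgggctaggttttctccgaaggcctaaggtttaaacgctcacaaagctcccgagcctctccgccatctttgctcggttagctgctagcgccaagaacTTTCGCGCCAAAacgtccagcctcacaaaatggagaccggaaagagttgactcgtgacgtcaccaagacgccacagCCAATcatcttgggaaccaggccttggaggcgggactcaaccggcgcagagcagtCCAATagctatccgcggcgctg
Pola1 (chrX:93632156-93632405, minus strand): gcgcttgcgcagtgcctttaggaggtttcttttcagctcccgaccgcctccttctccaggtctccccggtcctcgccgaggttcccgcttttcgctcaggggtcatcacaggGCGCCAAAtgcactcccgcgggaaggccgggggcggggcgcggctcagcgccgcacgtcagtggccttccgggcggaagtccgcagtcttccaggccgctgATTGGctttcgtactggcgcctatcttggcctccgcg
Orc1l (chr4:108579204-108579453, plus strand): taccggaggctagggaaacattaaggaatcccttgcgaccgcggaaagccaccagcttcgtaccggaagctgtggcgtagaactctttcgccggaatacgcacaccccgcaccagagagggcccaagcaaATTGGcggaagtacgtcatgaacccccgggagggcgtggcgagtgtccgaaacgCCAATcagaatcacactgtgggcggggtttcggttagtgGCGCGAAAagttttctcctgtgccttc
Mcm6 held 3 E2F words, of which a pair on opposite strands overlaps, and Mcm5 held 2, also overlapping. Both had 2 CCAAT words upstream as well.

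Of the 45 members, 38 had a promoter window of 300 bases (250 before and 50 after the start) in the RefSeq table, 3 of them under an updated symbol. An E2F word was found in 16 of these 38 (42.1%), against 2.6% of the 27025 genes in the table, which include noncoding genes. A CCAAT word was found in 22 (57.9%), against 41.1% of all genes. E2F words were found for 7 of the 11 members with a window that were lower in all 3 litters, for 7 of the 22 that were above 0 in litter 121 alone and for 2 of the other 5. All 7 helicase genes with a window had a CCAAT word and 4 had an E2F word, whereas none of the 5 nucleotide supply genes had an E2F word. These matches are a description of letters in a window and not of bound factors.

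Among the polymerases and primase, all 7 members were below 0 in litters 112 and 116 and 4 were also below 0 in litter 121. Pola1, the catalytic subunit of the polymerase that starts each strand, had log2 signals (A_51_P415905, mm8 chrX:89557569-89557628) of 11.17, 10.90 and 10.28 in wild type litters 112, 116 and 121 and of 10.53, 10.499 and 9.88 in the KO extracts. Each KO value was below its littermate by a similar step. The ratios of -0.64, -0.40 and -0.40 had a mean of -0.48 ± 0.14 (SD, n = 3 litters), and limma gave a p of 0.0132 (adjusted p = 0.711). Its partner Pola2 had smaller ratios of -0.36, -0.20 and -0.06.

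The primase subunits differed from each other. Prim1, the catalytic subunit, had ratios of -0.80, -0.98 and 0.20, and Prim2, the large subunit, had -0.26, -1.55 and -0.14. Of the leading strand polymerase epsilon, the catalytic subunit gene Pole had -0.38, -0.91 and 0.15, and Pole2 had -0.15, -0.69 and -0.40. Pole2 was thus lower in each litter, at a mean of -0.41 ± 0.27 (SD, n = 3 litters) and a limma p of 0.0509. Pold1, the catalytic subunit of the lagging strand polymerase delta, had -1.08, -0.41 and 0.28.

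Of the 7 clamp, clamp loader and lagging strand genes, 6 were below 0 in litter 112, 7 in litter 116 and 1 in litter 121. Pcna, the sliding clamp, had log2 signals of 13.44, 13.70 and 12.34 in wild type litters 112, 116 and 121 and of 12.97, 12.71 and 12.74 in the KO extracts. Its Lats2-/- levels were within a narrow band while the wild type levels were spread, and the ratios were -0.47, -0.99 and 0.40 (mean -0.36 ± 0.70, SD, n = 3 litters, adjusted p = 0.825 in limma). Fen1, the flap endonuclease, had -0.48, -0.63 and 0.23, and Lig1, the ligase that seals Okazaki fragments, had -0.76, -0.06 and 0.34. Rfc5 of the clamp loader was the one member of this role below 0 in each litter (-0.40, -0.68 and -0.11).

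The genes of nucleotide supply held members of every pattern. Dut, which encodes the enzyme that removes dUTP, was below 0 in all litters (-0.43, -0.74 and -0.05). Tyms, thymidylate synthase, had -0.56, -0.57 and 0.12, and Tk1, thymidine kinase, had -0.33, -0.86 and 0.12. The 2 ribonucleotide reductase subunits stood apart. Rrm2, the small subunit, was the highest member of litter 112 with a ratio of 0.71, was the second lowest of litter 116 with -1.20, and had 0.12 in litter 121. Its log2 signal was nearly level in wild type cells (11.26, 11.19 and 11.10) and varied in the KO extracts (11.97, 9.98 and 11.22), the reverse of Pcna. Rrm1, the large subunit, had -0.42, 0.02 and 0.51, averaging 0.04 ± 0.47 (SD, n = 3 litters).

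In the chromatin copying group, no member was below 0 in litter 121. Uhrf1, which guides DNA methylation to newly copied strands, had log2 signals of 12.30, 12.14 and 10.96 in wild type litters 112, 116 and 121 and of 11.40, 11.38 and 11.09 in the KO extracts. The wild type values lay on both sides of the 3 KO values. Its ratios were -0.90, -0.77 and 0.13, and those of Dnmt1, the maintenance methyltransferase that UHRF1 recruits, were -0.72, -0.71 and 0.05. Chaf1a and Chaf1b, subunits of the chromatin assembly factor that follows the fork, did not move alike: Chaf1a had -0.59, -0.46 and 0.11, and Chaf1b had 0.14, -0.78 and 0.85, the highest member value of litter 121. Slbp, which binds histone mRNA, had -0.18, -0.57 and 0.11.

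Both genes of repair at the fork were below 0 in each litter. Ung, the glycosylase that removes uracil from DNA, had log2 signals (A_51_P469449, mm8 chr5:114400198-114400257) of 9.65, 9.44 and 8.58 in wild type litters 112, 116 and 121 and of 8.54, 8.84 and 8.21 in the KO extracts. Its ratios of -1.10, -0.59 and -0.38 had a mean of -0.69 ± 0.37 (SD, n = 3 litters), a 1.61-fold lower level, and limma gave a p of 0.0206 (adjusted p = 0.711). Msh6, a mismatch repair gene, had -0.51, -0.70 and -0.03.

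By the litter means of their brightest probes, the 4 regulators of the G1/S transition were below 0 in litters 112 and 116 and above 0 in litter 121. In litter 121 some of these signs were not steady. The used probe of E2f1 had 0.36, -0.23, 0.34 and -0.22 on the 4 arrays, and the second probe of Ccne2 had a litter ratio of -0.06. E2f1, an E2F activator, had ratios of -0.20, -0.40 and 0.06. E2f2, another activator, had the widest range of all members, from -1.27 in litter 112 through -0.44 in litter 116 to 0.78 in litter 121. The E-type cyclins, which activate CDK2, had small values outside litter 112, with -0.53, -0.11 and 0.04 for Ccne1 and -0.77, -0.02 and 0.05 for Ccne2. The median of this group was -0.65 in litter 112 and -0.26 in litter 116.

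**Figure D4:**
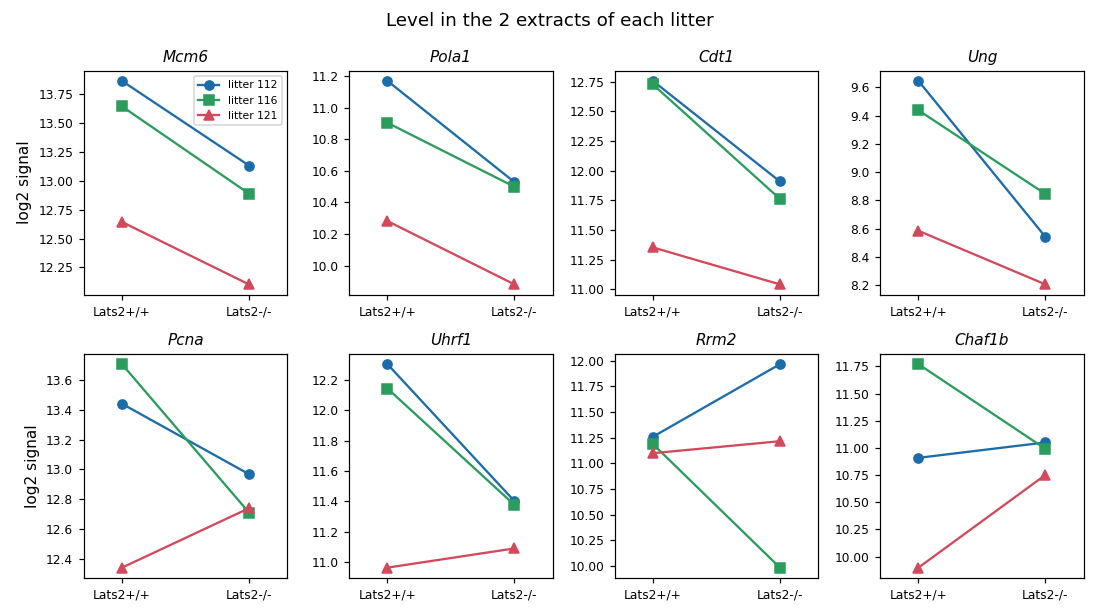
Log2 signal in the wild type and the Lats2-/- extract of each litter for 8 members, with lines joining littermates. Each panel has its own y axis, which does not start at 0. All 3 lines slope down for Mcm6, Pola1, Cdt1 and Ung, with ratios of -0.40 to -0.76 for Mcm6 and Pola1. The line of litter 121 slopes up for Pcna, Uhrf1, Rrm2 and Chaf1b.

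The 4 genes at an unadjusted p under 0.05 depended on the litters in part. Without litter 112 only Mcm6 of the 44 members was lower at that threshold, a share no larger than the 2.7% of all genes. Without litter 116 Mcm6 and Pola1 were, against 2.58% of all genes, and without litter 121 all 4 were among the 24 members given above. Under the 15 alternative settings, the mean ratio was between -0.74 and -0.64 for Mcm6, between -0.55 and -0.40 for Pola1, between -0.91 and -0.58 for Cdt1 and between -0.85 and -0.49 for Ung.

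Other genes of the cell cycle were counted beside the members. Of 50 further replication genes, 48 were measured, with medians of -0.49, -0.49 and 0.04 in litters 112, 116 and 121. At an unadjusted p under 0.05, 7 of the 48 were lower (Wdhd1, Tipin, Pold2, Cdc25a, Hells, Cdca7 and Orc2) and 0 were higher, against 3.45% and 4.14% of all genes. Wdhd1, which ties the helicase to polymerase alpha, had ratios of -0.91, -1.15 and -0.66, and Cdca7, a partner of the chromatin remodeller HELLS, had -0.75, -1.30 and -0.58. The 37 mitosis genes had medians of -0.56, -0.55 and 0.39, and 34 of them were above 0 in litter 121, where 30 of 44 members were. Among the 37, 1 gene was lower at an unadjusted p under 0.05, the mitotic cyclin Ccnb2, and 0 were higher, a count near the 3.45% of all genes that were lower. No gene of either list passed the adjusted threshold in limma.

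**Figure D5:**
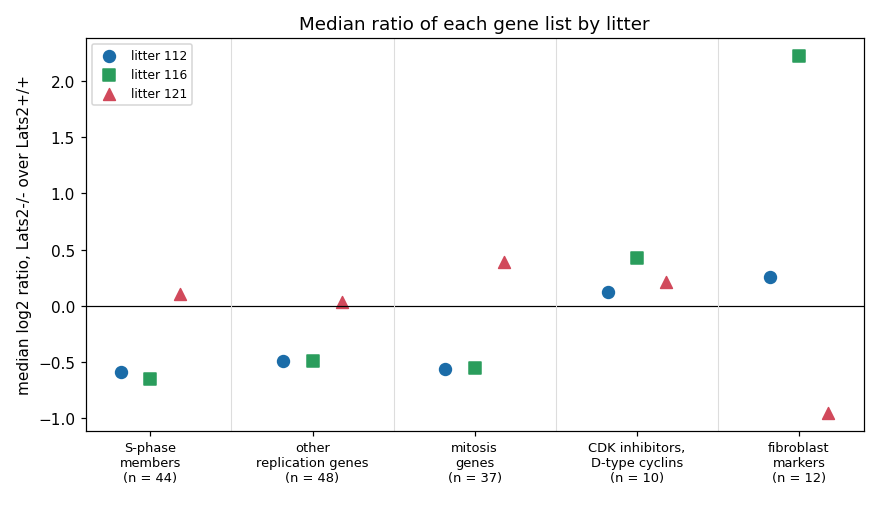
Median log2 ratio of Lats2-/- over Lats2+/+ (y axis) for the members and 4 other gene lists (x axis, with the number of genes measured), 1 point a litter. The members, the other replication genes and the mitosis genes lie from -0.65 to -0.49 on slide 1 (litters 112 and 116) and from 0.04 to 0.39 in litter 121. The fibroblast markers range from -0.95 in litter 121 to 2.22 in litter 116.

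The 10 CDK inhibitors and D-type cyclins had medians of 0.12, 0.43 and 0.21. Cdkn1a, the p21 inhibitor of CDKs, had ratios of 0.51, 0.47 and -0.58, the opposite signs to the members' medians, while Cdkn2d, another inhibitor on this list, had the same signs as the members (-0.57, -1.06 and 0.84). Cdkn2a, which encodes p16 and p19ARF, had -0.42 in litter 112 and 0.14 in litter 121, and was not well above background in wild type litter 116. Ccnd1, cyclin D1, was below 0 in each litter (-0.39, -0.29 and -0.60, mean -0.43 ± 0.16, SD, n = 3 litters), and limma gave a p of 0.0223 (adjusted p = 0.711). Cdkn1b, the p27 inhibitor, was above 0 in each (0.81, 0.86 and 0.27, mean 0.65 ± 0.33, SD, n = 3 litters), and limma gave a p of 0.0187 (adjusted p = 0.711).

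Markers of the cell type moved between litters as well. The 12 fibroblast markers had median ratios of 0.26 in litter 112, 2.22 in litter 116 and -0.95 in litter 121. Their summed level is the log2 of their linear signals added up, so that the brightest probes weigh most. It ranged from 18.07 to 19.26 over the Lats2-/- extracts and from 18.52 to 19.29 over the wild type extracts. For the Lats2-/- and then the wild type extracts, the summed level of the macrophage markers ranged from 9.71 to 11.95 and from 9.84 to 11.18, and that of the 3 neural markers on the array from 9.62 to 12.75 and from 9.46 to 10.3, the highest being the KO extract of litter 121 with its high Nes. Of the macrophage markers, Lyz2 had ratios of 0.05, 0.95 and 3.40 in litters 112, 116 and 121, with its highest log2 signal (11.76) in the KO extract of litter 121, and Cd14 had -0.60, -1.64 and -0.74, with its highest (10.81) in wild type litter 116. The epithelial markers ranged from 8.79 to 9.76 and from 8.80 to 8.93, with Epcam well above background in no extract, Krt14 in 5 and Krt19 in 4. Krt19 was well above background in all 3 KO extracts and, of the wild type extracts, in that of litter 121 alone, where its ratio was 1.83. The endothelial (8.42 to 8.63 and 8.42 to 8.47), erythroid (7.87 to 7.90 and 7.90 to 7.96) and muscle markers (7.68 to 7.70 and 7.67 to 7.69) lay in narrower bands. The part of these differences in the members' ratios was not tested.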

How the data were processed

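Total RNA of 6 MEF extracts was measured by the authors on 8 Agilent whole mouse genome arrays (design 014868) and spots were read with Agilent Feature Extraction (10.7.3.1 per the file headers, 10.5.1.1 per the submitters' processing notes). The deposited scanner files hold intensity values (mean spot and median local background brightness per dye, linear, not normalized), processed intensity values, and the log10 ratio of red over green after the software's background subtraction and dye normalization. The deposited value table holds the same log10 ratios, turned to Lats2-/- over Lats2+/+ (largest difference 0.005).

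Here, mean intensities of 45018 spots per array were background corrected with normexp (offset 50) in limma 3.58.1 (R 4.3.3). Control spots and 860 outlier gene spots were left out, 0 gene spots were saturated, and loess was applied within each array. Repeat spots were averaged, and arrays of a litter, which share 2 extracts, were averaged to 1 log2 ratio. Extracts were grouped by genotype and litter as the labels give them, and the arrays pair littermates. Probes well above background in at least 2 of 3 extracts of a genotype were kept (22642 of 41174), an extract being counted by the majority of its arrays. The 3 litter ratios were tested against 0 with limma (lmFit, eBayes, two-sided, Benjamini-Hochberg over kept probes, threshold 0.05), and for counts of genes the brightest kept probe stood for the gene (14791 genes). Levels are log2 signals per extract after loess and Aquantile scaling, compared only within a probe. The summed levels of the marker lists are the exception, since they add up different probes. Precision is limited by the small number of litters and arrays.

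The members, the gene lists and the tests were chosen with earlier results of these data known. Named were 27 anchor genes by role, members with an unadjusted limma p under 0.05, the highest and lowest member of each litter, and members with 1 sign in all 3 litters. The lists were further replication genes, mitosis genes, CDK inhibitors with D-type cyclins, and markers of fibroblasts, macrophages, endothelium, epithelium, neural cells, muscle and erythroid cells. The alternatives were a normexp offset of 16, the software's processed signals, the deposited table, median centring, stricter and no filtering, all kept probes averaged and each litter left out. Further ones were an unpaired fit, arrays fitted with litter or slide as a random block, with a dye term, and a t-test of litter ratios against 0. The study's methods name a t-test and a fold change but do not say which values entered the test. Scripts were tested on simulated data. Promoter windows are RefSeq's for GRCm38.p6, and probe positions are those of the files (mm8). Protein sequences were not analysed here.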

Additional observations from a re-analysis of the deposited data

How the results depend on the processing

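Of the 34 named members, 27 kept the sign of their mean log2 ratio under all 15 alternatives. The exceptions were Rrm1, which was -0.0083 with median centring in place of loess, and 7 genes when single litters were left out, with lowest and highest means of -0.31 and 0.0619 for Orc1l, -0.41 and 0.14 for Lig1, -0.20 and 0.27 for Rrm1, -0.54 and 0.41 for Rrm2, -0.32 and 0.50 for Chaf1b, -0.40 and 0.0119 for Ccne2, and -0.85 and 0.17 for E2f2. The count of members called at an adjusted p under 0.05 in limma was 0 in every fit of litter ratios and in the unpaired fit. With arrays as units it was 0 with a random litter block alone (1.83% of all genes), 3 with slide as a random block (Cdt1, Mcm6 and Pola1, where 3.52% of all genes were called) and 1 with a random litter block plus a dye term (Mcm6, 1.16% of all genes). These fits count arrays of the same extracts as further replicates. At an unadjusted p under 0.05 the count of 4 members, all lower, became 0 without the pairing of littermates (no replicate block; 1.32% of all genes were lower at that threshold), 17 with arrays blocked by litter (random), whether or not dye was a term (6.52% with it and 6.65% without), 11 with slide as a random block (8.84%) and 2 by the methods' t-test (2.9%), and it ranged from 1 to 24 when 1 litter was left out (1 without litter 112, 2 without 116 and 24 without 121, against 2.7%, 2.58% and 3.54% of all genes). The median member ratio of litter 116 was -0.67 with a normexp offset of 16, -0.74 with Feature Extraction's processed signals and with the deposited table, -0.77 with median centring and -0.69 with all kept probes averaged. With the processed signals and the deposited table, the median was -0.65 and -0.66 in litter 112 and 0.0693 in litter 121. All of these kept their sign, and the causes were not tested. With 3 litters, of which 1 has a slide of its own, a difference of litter 121 from the others has no replicate.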

Other observations

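Prim2, which encodes the large primase subunit, stood apart by litter rather than by genotype, a pattern chosen after its values were seen. Its log2 signal was 7.29, 9.42 and 7.11 in the KO extracts (litters 112, 116 and 121) and 7.55, 10.97 and 7.25 in their wild type littermates. Both extracts of litter 116 were above all others. Prim2 was the only member with a range over 2 log2 units within each genotype, as 2.57% of all genes had, and the next member was Mcm5, for which the smaller of its 2 ranges was 1.42. Cdkn2a, which is no member, differed by litter in the other direction, at 6.59 and 6.10 in the Lats2-/- and wild type extracts of litter 116 and between 10.08 and 10.60 in the other 4 extracts. Cdkn2b showed the same order, at 6.54 and 6.11 in litter 116 and between 10.79 and 11.68 in the other 4. Neither gene was well above background in wild type litter 116. No test was run on these patterns.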
